A study of Homo sapiens with 8 samples.

Results

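The genes of the secretory pathway described here encode the machinery that brings newly made proteins into the endoplasmic reticulum (ER) and carries them between the ER and the Golgi. They were chosen by symbol and are the genes of the signal recognition particle (SRP) and its receptor, the SEC61 translocon with SEC62 and SEC63, the translocon-associated protein (TRAP) complex, signal peptidase, the COPII and COPI coats, the p24 cargo receptors (TMED), the KDEL receptors and the SEC22 SNAREs. The table of normalised read counts held 16782 genes, of which 59 matched, and all 59 passed the filter of at least 1 CPM (reads scaled to a common library size) in at least 2 samples, as did 15593 genes in total. SEC24B-AS1, a transcript antisense to SEC24B, and SEC23IP, a partner of SEC23, matched by their symbols and are described apart from the steps. SEC16B, SEC24C and TMED1 were not analysed here.

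A protein with a signal sequence is recognised by SRP while the ribosome is still making it, and is led through the SRP receptor to the SEC61 channel in the ER membrane. Signal peptidase then removes the signal sequence. COPII coats the vesicles that leave the ER, COPI coats those that return from the Golgi, p24 proteins and SEC22 travel in these vesicles, and KDEL receptors bring escaped ER proteins back. Much of this machinery is known to be transcribed more strongly when the load of secretory protein or of misfolded protein in the ER grows.

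All samples were CAKI1 cells, a long-established line of human renal carcinoma, serum starved for 24 h before stimulation. In 4 samples the cells received 5 µg/mL hLcn-2, the iron-loaded form of lipocalin-2, for 24 h, and 4 control samples were left without it, so that the comparison asks how hLcn-2 alters mRNA amounts. Samples were numbered 1 to 4 in both groups, and those with the same number deviated together from their group means, with correlations across genes from 0.312 to 0.61 against −0.455 to 0.234 for other pairings. The deviations of a gene cancel out within each group. Positive correlations of same-numbered samples therefore lower those of other pairings by construction, and the contrast is partly built in. The labels do not say whether the numbers stand for separate cultures, and p-values measure the spread between these samples. The cell line is a single source, no arm with iron-free lipocalin-2 was among these libraries, and a change in RNA per cell cannot be told apart from a change in which cells made up the culture.

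The libraries held between 1501563 reads (control 4) and 13953090 reads (control 1), and 1 read was worth 0.658 and 0.0704 CPM in these samples. Mitochondrial genes took 7.37% to 13.8% of the reads, with the highest shares in control 3 (12.7%) and hLcn-2 sample 3 (13.8%). Of 10 markers of renal carcinoma epithelium, 9 were in the table and CA9 was not, summing to between 3012 and 4011 CPM in controls and between 3398 and 4259 CPM after hLcn-2. VIM, MET and CDH2 made up most of this sum, with control means of 1664, 956 and 416 CPM. PAX8 was at 226 ± 22.4 and 223 ± 18.3 CPM (SD, n = 4). Of the leukocyte markers CD74 alone was in the table, at 183 ± 70.3 and 197 ± 96.7 CPM (SD, n = 4), and the fibroblast markers COL1A1 and PDGFRB summed to between 2.47 and 6.58 CPM. PTPRC, LYZ, DCN, LUM, PECAM1, VWF and CDH5, which define other cell types, had no row in the table.

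Secretory pathway mRNAs were slightly more abundant after hLcn-2, with a median log2 fold change of 0.105 over the 59 genes against 0.00083 over all genes tested. A log2 fold change is the difference of log2(normalized count + 1) between the group means, hLcn-2 minus control. Each SE given with it is that of limma without the replicate block described below. This holds also where p-values with the block stand beside it, so the SE and such a p-value come from different fits. The value was above 0 for 48 of the 59 genes (81.4%), while 50.2% of all genes tested lay above 0. Single genes differed little, with log2 fold changes from −0.16 (SPCS2) to 0.97 (COPZ2), and 0 of the 59 genes passed an adjusted p-value of 0.05 in limma, as did 0% of all genes tested. At an unadjusted p-value under 0.05, limma had 2 of the 59 genes and 355 of all genes.

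When same-numbered samples were compared with each other (replicate block), 44 genes in the table, or 0.282%, passed in limma and 0 of the 59 genes did. In edgeR with the block, run on the whole reads recovered from the deposited values, 233 genes or 1.49% passed, and 1 of them was a secretory pathway gene, SEC61G. At an unadjusted p-value under 0.05 in limma with the block, 14 of the 59 genes (23.7%) were higher and 0 lower after hLcn-2, whereas 6.65% of all genes tested passed this mark in the higher direction. More abundant genes passed it more often, since 517 of 4238 genes with a mean of at least 50 CPM did so, beside 12 of 43 members. These 14 genes were SRP19, SRPRB, SEC61A1, SEC61B, SEC61G, SEC11A, SEC11C, SAR1B, COPA, COPZ2, TMED2, TMED7, KDELR2 and SEC23IP, so that 7 of the 9 steps held at least 1 of them and the TRAP complex and SEC22 none. They are counted without adjustment, and genes of a pathway are not independent of each other.

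Pair by pair, 22 of the 59 genes (37.3%) were higher in hLcn-2 than in the same-numbered control in 4 of 4 pairs, beside 9.93% of all genes tested. One gene (1.69%), SEC22B, was lower in 4 of 4 pairs, beside 10.9% of all genes. Well-measured genes have less counting error, so the count was repeated for genes with a mean of at least 50 CPM, where 18 of 43 members (41.9%) and 14.9% of 4238 genes were higher in all 4 pairs. The median difference of the 59 genes was 0.14, 0.098, 0.15 and 0.083 in pairs 1 to 4, and that of all genes −0.016, 0.0076, −0.045 and 0.038. The median of the members thus lay above that of all genes in each pair. Not every member was higher, since 38, 47, 49 and 38 of the 59 were so in pairs 1 to 4. Of all 15593 genes, 7468, 7999, 6977 and 8263 were. The groups did not overlap for 3 genes, SRPRB, SEC11C and SEC24B-AS1, all higher after hLcn-2 (5.08%), beside 0.891% of all genes with no overlap in this direction. At a mean of at least 50 CPM this held for 1 of 43 members and 53 of 4238 genes.

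The epithelium markers, which are not secretory pathway genes, had a median log2 fold change of 0.17 over 9 genes, 6 above 0 and 3 below. CDH2 (0.30), CA12 (0.24) and VIM (0.17) were higher in 4 of 4 pairs, and PAX2 (0.28), EPCAM (0.18) and KRT8 (0.13) in 3 of 4. KRT18 (−0.08), MET (−0.03) and PAX8 (−0.01) lay below 0. In limma or edgeR with the block, 0 of the 9 passed the adjusted threshold, while 3 had an unadjusted p-value under 0.05 in each. Their part in the difference of the secretory pathway genes was not tested.

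**Figure D1:**
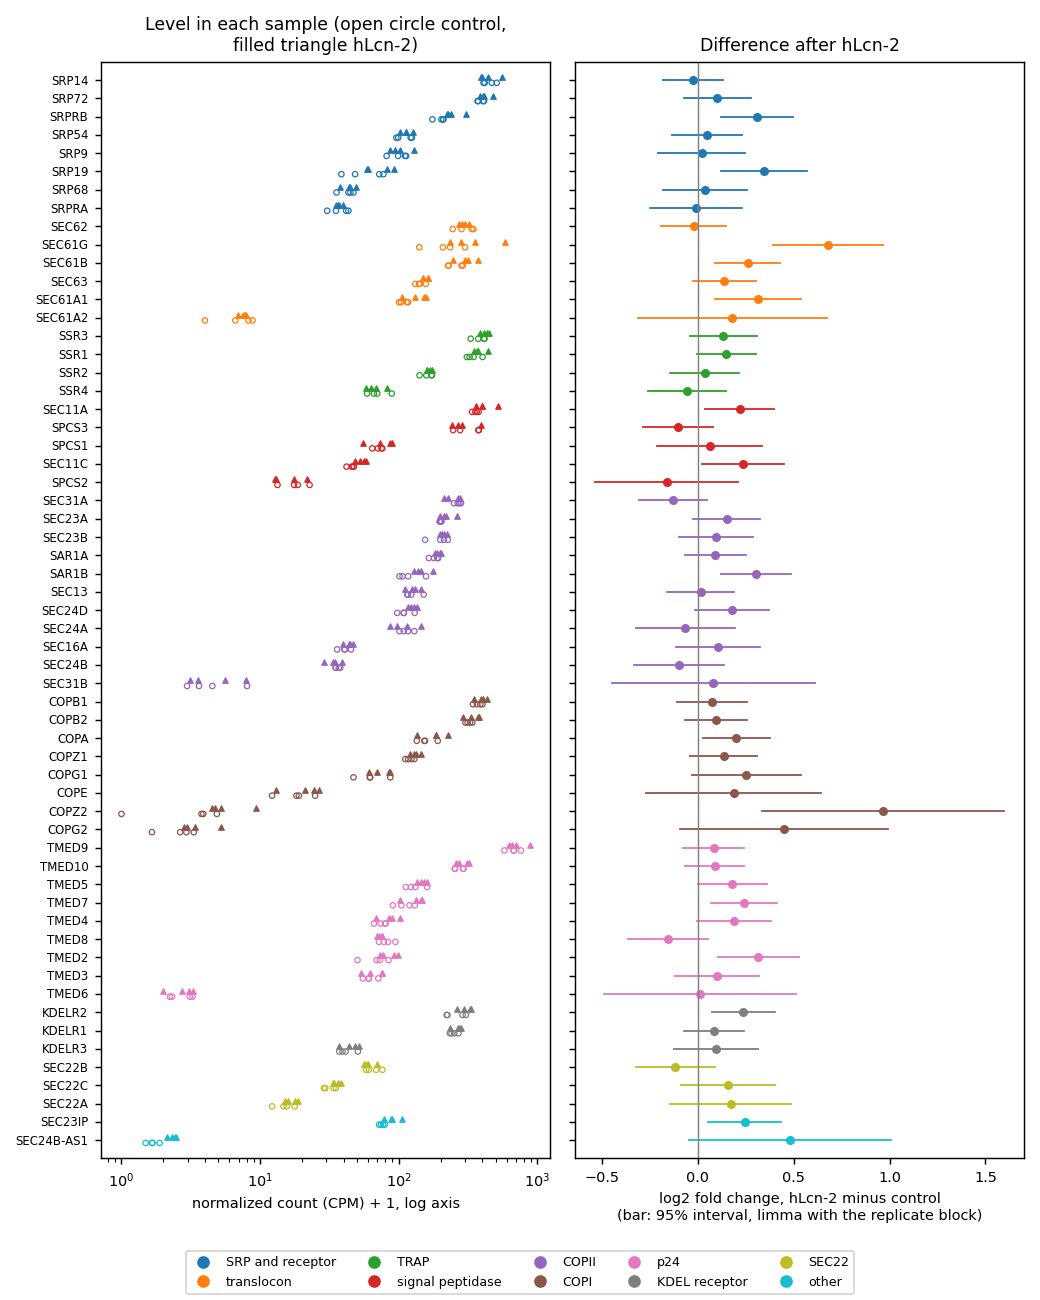
Left, normalised read count plus 1 (CPM, log axis) of the 59 genes in each of the 4 control samples (open circles) and 4 hLcn-2 samples (filled triangles), coloured by step. Right, log2 fold change, hLcn-2 minus control, with the 95% interval of limma with the replicate block. Most points lie to the right of 0 and within 0.35 of it, and SEC61G (0.68) and COPZ2 (0.97) lie farthest out.

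Summed over the members, the secretory pathway took 9186, 8901, 8656 and 8559.6 CPM in controls 1 to 4 and 10560.4, 9546, 9532 and 8892 CPM in hLcn-2 samples 1 to 4. Each hLcn-2 sample was above its own control, by ratios of 1.15, 1.07, 1.1 and 1.04, although hLcn-2 sample 4 lay below control 1 and control 2. The normalised counts of all genes also summed to more in each hLcn-2 sample than in its control. These totals were 982789, 947654, 1022201 and 988754 CPM in controls 1 to 4. In hLcn-2 samples 1 to 4 they were 1010166, 982171, 1030981 and 1004576 CPM, and the ratios are not corrected for this. The libraries were read from the 3′ end with 1 tag per transcript, so levels were compared between genes without division by length. By this measure the 9 p24 genes had the highest sum in controls, with 1469 ± 90.4 CPM. The 11 COPII genes (1389.5 ± 82.8 CPM) and the 8 of SRP with its receptor (1383 ± 122 CPM) followed. The gaps between them were less than the SD of the p24 sum (n = 4 each). The 3 SEC22 genes had the lowest sum, at 110 ± 9.35 CPM. These sums depend on which genes matched by symbol, and the COPI subunit ARCN1 is not among them, so their order does not rank the complexes.

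The translocon differed most among the summed steps, at 1117, 1191, 974 and 846 CPM in controls and 1551, 1287, 1154 and 1058 CPM after hLcn-2, with pair ratios of 1.39, 1.08, 1.18 and 1.25. SEC61G made up the greater part of this difference, with control and hLcn-2 means of 219.98 and 362 CPM. The TRAP complex (956 ± 8.5 to 1030 ± 37.7 CPM), COPI (1054 ± 28.3 to 1152 ± 75 CPM), KDEL receptors (548 ± 48.2 to 610.1 ± 30.8 CPM), p24 proteins (to 1589 ± 179 CPM) and SRP with its receptor (to 1476 ± 151 CPM) were also higher in 4 of 4 pairs (SD, n = 4). Signal peptidase and COPII were higher in 3 of 4 pairs, with pair 4 in the other direction at ratios of 0.86 and 0.967, and SEC22 in 2 of 4. In pair 2 the ratio of SRP with its receptor was only 1.006, and the step sums are likewise not corrected for the totals of all genes. No p-value is given for these sums, since the genes were chosen with earlier results known.

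**Figure D2:**
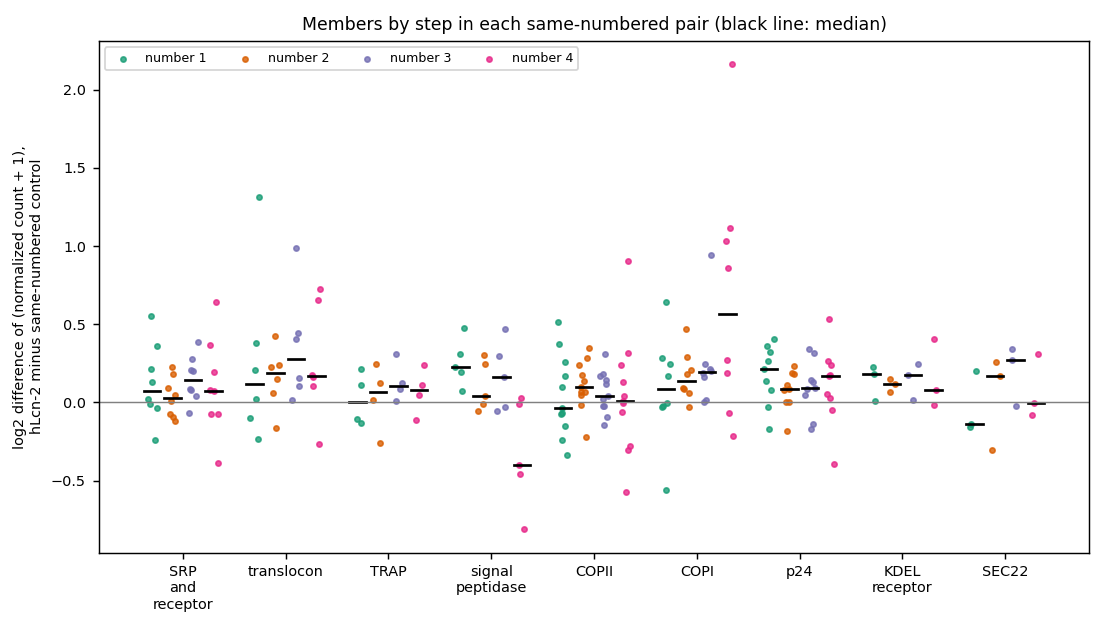
Difference of log2(normalized count + 1), hLcn-2 minus the same-numbered control, for each gene (points) by step of the pathway, with the 4 pairs in separate colours and columns and the median of each as a black line. Medians lie above 0 in all pairs for every step but signal peptidase, COPII and SEC22, and that of signal peptidase in pair 4 lies at −0.4.

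Among the first steps, SRP binds the signal sequence and halts the ribosome, and its receptor anchors the complex to the ER. SRPRB, the membrane-spanning subunit of the receptor (chr3:133784023-133825772), stood at 208, 202, 174 and 209 CPM in controls 1 to 4 and at 305, 236, 227 and 220.5 CPM in hLcn-2 samples 1 to 4. Each hLcn-2 sample lay above every control, although hLcn-2 sample 4 did so by a small margin. The log2 fold change was 0.31 (SE 0.14 without the block and 0.087 with it in limma). The adjusted p was 0.162 in limma and 0.072 in edgeR, both with the block. The two-sided exact permutation p was 0.0286, the smallest that 4 against 4 samples allow. Every gene whose groups do not overlap takes this value, so it restates the lack of overlap. Without pair 4, the pair of the shallowest control, the adjusted p of SRPRB was 0.028 in edgeR with the block, and without pairs 1, 2 and 3 it was 0.451, 0.237 and 0.245. SRPRA, the other subunit, was at 36.7 ± 5.96 and 36.1 ± 1.88 CPM (SD, n = 4), lower than SRPRB by a wide margin in every sample.

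SRP14, which with SRP9 forms the Alu-binding end of the particle, had the highest level of this step and stood at 508, 468, 415 and 408 CPM in controls and 555, 438, 397 and 387 CPM after hLcn-2. The groups overlapped throughout and the log2 fold change was −0.03 (SE 0.15), with a sign that turned when single samples were left out. SRP19, which helps SRP54 join the RNA, exceeded its control in every pair (log2 fold change 0.34, SE 0.24), and its last exon overlaps another gene on the same strand. The other SRP genes (SRP9, SRP54, SRP68 and SRP72) had log2 fold changes between 0.02 and 0.10. Of 45 windows of 60 nt in the last 500 nt of the SRP9 transcript, 82.2% also matched elsewhere in the genome with at most 1 mismatch, and for SRP72 44.4% did, so their counts are uncertain, while SRP14 had 13.3% and SEC61B 17.8% of such windows.

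SEC61 is the channel itself and has the subunits alpha, beta and gamma. SEC61G, the gamma subunit (chr7:54752250-54759974, minus strand), was measured at 233, 299.9, 207 and 139.6 CPM in controls 1 to 4 and at 582, 354, 282 and 231 CPM in hLcn-2 samples 1 to 4. It was higher after hLcn-2 in each pair, by 1.32, 0.24, 0.44 and 0.72 on the log2 scale, yet the groups overlapped because hLcn-2 samples 3 and 4 lay below control 2. The log2 fold change was 0.68, and limma without the block gave SE 0.28, a 95% interval of 0.07 to 1.29 and adjusted p = 0.9999. Under the replicate block the interval in limma was 0.39 to 0.97 and the adjusted p 0.056. The exact permutation p was 0.143. With the block, the adjusted p of SEC61G was 0.00792 in edgeR and 0.000664 in DESeq2. Pair 1 carried the largest difference, and without it the log2 fold change was 0.45 and the adjusted p = 0.0377 in edgeR with the block; without each of the other pairs that p lay between 0.0038 and 0.0322. None of the 37 windows at the 3′ end of SEC61G matched elsewhere, though 18 of them cross exon borders or could otherwise not be placed.

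SEC61A1, the alpha subunit that forms the pore, and SEC61B, the beta subunit, are given beside SEC61G after their values were seen. SEC61A1 stood at 103, 113, 116 and 99.4 CPM in controls and 104, 152, 129 and 157 CPM after hLcn-2. SEC61B stood at 288, 282, 228 and 226 CPM in controls and 375, 313, 302 and 243 CPM after hLcn-2. Both were higher in 4 of 4 pairs, with overlapping groups, log2 fold changes of 0.31 (SE 0.15) and 0.26 (SE 0.15), and adjusted p-values of 0.236 and 0.204 in limma with the block. The differences were spread over the pairs in unlike ways, since SEC61A1 differed by 0.02 in pair 1, where SEC61G differed most, and by 0.65 in pair 4. SEC61A2, the second alpha gene, held 2.53% to 7.08% of the SEC61A1 and SEC61A2 reads.

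SEC62, which works with SEC63 in import after translation, had the highest level of the step, at 344, 335, 282 and 244 CPM in controls and 321, 299, 285 and 273 CPM after hLcn-2. The hLcn-2 samples lay within the range of the controls and the log2 fold change was −0.02 (SE 0.14). SEC63 stood at 141 ± 10.5 and 156 ± 8.21 CPM (SD, n = 4) and was higher in every pair (log2 fold change 0.14, SE 0.12).

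**Figure D3:**
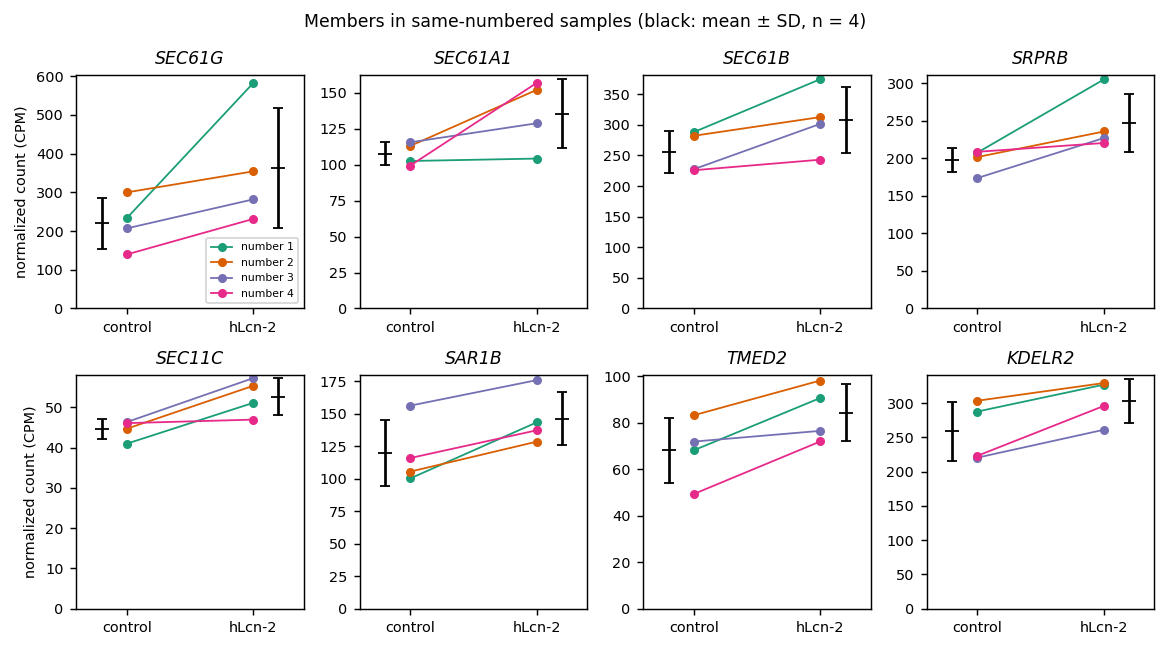
Normalised read count (CPM, axis from 0) of 8 genes in control and hLcn-2 samples, with lines joining samples of the same number and black bars for mean ± SD (n = 4). Each line goes up, steeply for SEC61G in pair 1 (233 to 582 CPM) and hardly for SEC61A1 in the same pair (103 to 104 CPM). The 8 genes were picked by name from the 22 members that were higher in 4 of 4 pairs, so the upward lines follow from the choice.

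The promoter of SEC61G is shown because it was the one member called in edgeR with the block, that of SEC61B because it encodes a partner subunit, and that of SRPRB because its groups did not overlap. SEC61A1 encodes a partner subunit too, but its promoters held no CCAAT box and no match to TGATGNAAT, and they are not shown. The sequences are those of RefSeq (GRCh38.p14) and run from 250 bases before to 50 bases after the start site, in the direction of the gene. Capitals mark the CCAAT box (CCAAT, or ATTGG on the other strand) in SEC61G and SEC61B, and in SRPRB a match to TGATGNAAT, the letters to which ATF4 with a C/EBP partner is known to bind, which lies on the other strand.
SEC61G promoter, chr7:54759162-54759461, minus strand: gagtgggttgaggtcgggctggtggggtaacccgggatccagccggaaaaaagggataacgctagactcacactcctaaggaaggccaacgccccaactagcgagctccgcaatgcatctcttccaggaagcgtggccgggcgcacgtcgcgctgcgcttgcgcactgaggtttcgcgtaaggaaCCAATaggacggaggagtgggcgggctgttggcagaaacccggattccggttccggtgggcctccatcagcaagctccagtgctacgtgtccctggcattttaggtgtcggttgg
SEC61B promoter, chr9:99222032-99222331, plus strand: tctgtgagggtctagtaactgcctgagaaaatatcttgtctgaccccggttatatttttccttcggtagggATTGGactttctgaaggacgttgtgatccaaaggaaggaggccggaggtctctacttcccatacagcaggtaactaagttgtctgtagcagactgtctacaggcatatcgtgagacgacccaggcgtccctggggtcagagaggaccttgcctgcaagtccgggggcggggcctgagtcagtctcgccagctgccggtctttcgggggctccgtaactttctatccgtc
SRPRB promoter, chr3:133805565-133805864, plus strand: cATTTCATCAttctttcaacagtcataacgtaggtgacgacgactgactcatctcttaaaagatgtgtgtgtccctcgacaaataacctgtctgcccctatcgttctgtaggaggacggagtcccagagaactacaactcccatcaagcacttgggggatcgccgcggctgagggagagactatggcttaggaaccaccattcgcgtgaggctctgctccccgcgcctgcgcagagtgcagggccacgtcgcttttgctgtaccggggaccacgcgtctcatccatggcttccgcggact

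CCAAT was found for 44.2% of the 52 members with a RefSeq promoter, for 39.7% of all 27305 genes with one and for 43.5% of the 10480 genes tested that had one. A gene counts when any of its promoters holds the letters, and the shares of genes tested for other motifs are also of these 10480. TGATGNAAT was found in 1 member, SRPRB, at 249 bases before the start site, or 1.92% of members, beside 1.22% of all genes and 0.782% of genes tested. The GC box GGGCGG was held by 76.9% of members, beside 76% of the genes tested. The motifs were searched on both strands and were chosen after the values were known.

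The TRAP complex sits beside the channel and helps some signal sequences open it. SSR3, its gamma subunit, had the highest level, at 373, 409.9, 329 and 414 CPM in controls and 432, 446, 408 and 383 CPM after hLcn-2 (log2 fold change 0.13, SE 0.12). SSR1, the alpha subunit, stood at 323, 309, 401 and 345 CPM in controls and 349, 366, 438 and 372 CPM after hLcn-2. Every pair showed it higher, by 0.11 to 0.25, while the groups overlapped (log2 fold change 0.15, SE 0.13, adjusted p = 0.429 in limma with the block). SSR2 and SSR4 had log2 fold changes of 0.04 and −0.06. The last exons of SSR1 and SSR3 overlap genes on the other strand, as do those of COPB2, COPG1, COPG2, KDELR3, SEC61A2, SPCS1 and SRPRA, and whether reads were counted by strand is not given in the sources used here. SSR1 held 36 ± 4.07% of the summed reads of the complex in controls and 37 ± 2.76% after hLcn-2 (SD, n = 4).

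Signal peptidase has a catalytic subunit, SEC11A or SEC11C, and the partners SPCS1, SPCS2 and SPCS3. SEC11C (chr18:59139866-59158832) stood at 41.0, 44.7, 46.4 and 46.1 CPM in controls and 51.1, 55.4, 57.3 and 47.0 CPM after hLcn-2. All hLcn-2 samples lay above all controls, hLcn-2 sample 4 by less than 1 CPM, which fixes the exact permutation p at 0.0286. The log2 fold change was 0.23 (SE 0.13, adjusted p = 0.364 in limma with the block). SEC11A, the more abundant of the catalytic subunits, stood at 376, 337, 356 and 363 CPM in controls and 522, 399, 397 and 362 CPM after hLcn-2. It was higher in 3 pairs and level in the fourth, with a log2 fold change of 0.22 (SE 0.13), and the share of SEC11C in the catalytic subunits was 11.1 ± 0.854% in controls and 11.3 ± 1.65% after hLcn-2 (SD, n = 4). The partner subunits lay on both sides, with log2 fold changes of 0.06 (SPCS1), −0.10 (SPCS3) and −0.16 (SPCS2), and in pair 4 the 3 partners differed by −0.46, −0.40 and −0.81.

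COPII forms when the GTPase SAR1 recruits SEC23 and SEC24, of which SEC24 picks the cargo, and SEC13 with SEC31 then builds the outer cage. SAR1B (chr5:134601149-134649271, minus strand), the SAR1 gene needed for the large lipoprotein particles of the gut, stood at 100.2, 105, 156 and 116 CPM in controls and 143, 128, 176 and 137 CPM after hLcn-2. It was higher in 4 of 4 pairs by 0.17 to 0.51, and the groups overlapped through control 3. Its log2 fold change was 0.30 (SE 0.16 without the block and 0.084 with it in limma). The adjusted p was 0.161 in limma and 0.0743 in edgeR, both with the block. SAR1A stood at 180.4 ± 12.5 and 192 ± 9.56 CPM (SD, n = 4). The share of SAR1B in the SAR1 reads was 34.7%, 37.2%, 48.8% and 37.7% in controls and 41.5%, 40.7%, 49.2% and 41% after hLcn-2, higher in each pair, although by less than 1 percentage point in pair 3.

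SEC31A, the cage subunit with the highest level of the step, stood at 249, 265, 272 and 279.9 CPM in controls and 211, 274, 268 and 226 CPM after hLcn-2. Samples 1 and 4 of the hLcn-2 group lay below all controls and samples 2 and 3 among them, with a log2 fold change of −0.13 (SE 0.13). SEC31B held 0.701% to 2.53% of the SEC31 reads. SEC13 and SEC16A, the latter a scaffold of ER exit sites, had log2 fold changes of 0.01 and 0.10. The inner coat showed its paralogues in even shares, as SEC23A held 47.3% to 56.2% of the SEC23 reads over the 8 samples. Among the SEC24 genes in the table, SEC24D held 42.6 ± 2.61% in controls and 47 ± 5.76% after hLcn-2, and SEC24A 43.7 ± 2.75% and 40.7 ± 5.31% (SD, n = 4). SEC24D was higher in 3 of 4 pairs in this share and the ranges overlapped, and SEC24B was lower in 4 of 4 pairs, at 13.7 ± 1.22% and 12.4 ± 0.819%.

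**Figure D4:**
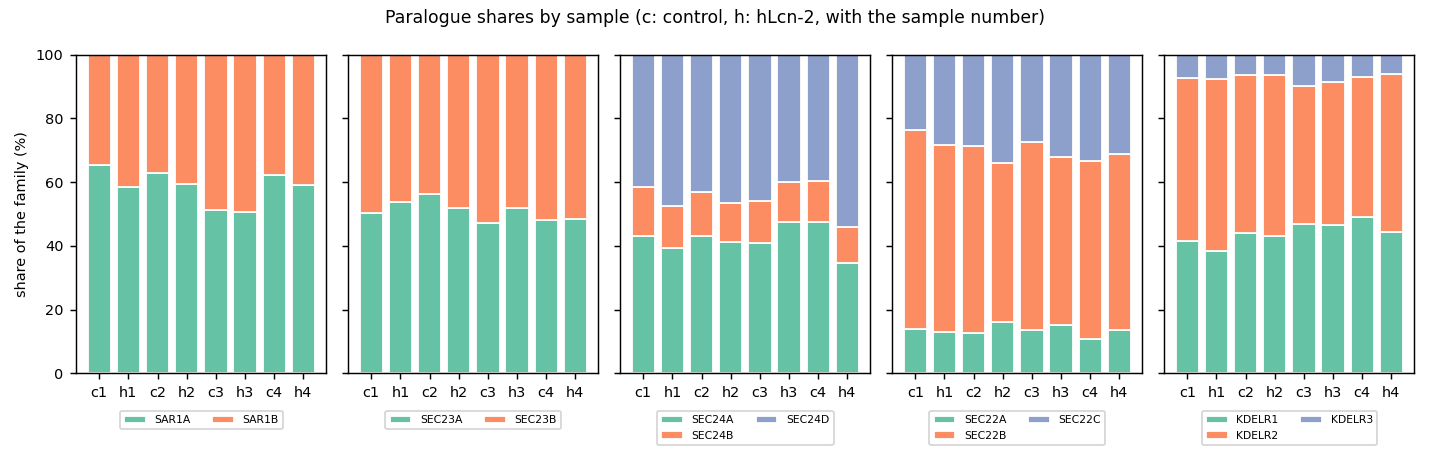
Share of each paralogue in the summed reads of its family (percent, bars from 0 to 100) in control (c) and hLcn-2 (h) samples 1 to 4, for SAR1, SEC23, SEC24, SEC22 and the KDEL receptors. SAR1B is larger in h than in c of the same number in 4 of 4 pairs (39.6 ± 6.27% and 43.1 ± 4.09%, SD, n = 4), and the SEC23 genes stay near even shares.

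COPI is a coat of several subunits that the GTPase ARF1 brings to Golgi membranes. All 8 COPI genes in the list had log2 fold changes above 0, from 0.07 (COPB1) to 0.97 (COPZ2), and 0 of them passed in limma or edgeR with the block. COPB1, the beta subunit and the most abundant, stood at 364, 386, 341 and 400.4 CPM in controls and 432, 403, 392 and 345 CPM after hLcn-2. It was higher in pairs 1 to 3 and lower in pair 4 (log2 fold change 0.07, SE 0.12). COPA, the alpha subunit of the outer part of the coat, was at 157 ± 23.6 and 182 ± 37.5 CPM (SD, n = 4), with differences of 0.29, 0.24 and 0.27 in pairs 2 to 4 and 134 CPM in both samples of pair 1. COPZ2, the rarer zeta subunit, stood at 2.89, 2.78, 3.88 and 0 CPM in controls and 3.74, 4.23, 8.39 and 3.48 CPM after hLcn-2, which were 0 to 42 reads. Its log2 fold change of 0.97 (SE 0.46) was the largest of the members, but control 4 held 0 reads, where 3 reads would be 1.98 CPM, and without pair 4 the value was 0.57 in limma with the block. COPZ1, the common zeta subunit, made up 94.5% to 100% of the zeta reads, and its log2 fold change was 0.13 (SE 0.12).

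The p24 proteins span the membrane of these vesicles and act as cargo receptors and as partners of the coats. TMED9 was the most abundant of the 59 genes, at 759, 577, 676 and 671 CPM in controls and 882, 623, 699 and 649 CPM after hLcn-2. The groups overlapped, and the log2 fold change was 0.08 (SE 0.15). TMED2, the beta member, stood at 68.2, 83.3, 71.9 and 49.4 CPM in controls and 90.7, 98.2, 76.5 and 72 CPM after hLcn-2. All 4 pairs had it higher, by 0.09 to 0.53 (log2 fold change 0.32, SE 0.18, adjusted p = 0.204 in limma with the block). TMED4, TMED5, TMED7 and TMED10 were likewise higher in every pair, at log2 fold changes of 0.19, 0.18, 0.24 and 0.09. TMED8 was the exception of the family at −0.16 (SE 0.13). The 3′ exon of TMED7 is shared with the readthrough gene TMED7-TICAM2, and 17.8% of the windows of TMED10 matched elsewhere.

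KDEL receptors bind the ER retention signal of chaperones in the Golgi. KDELR2 stood at 288, 304, 221 and 223 CPM in controls and 327, 329, 261 and 296 CPM after hLcn-2. Each pair had it higher after hLcn-2, by 0.12 to 0.41, and the groups overlapped (log2 fold change 0.24, SE 0.15, adjusted p = 0.225 in limma with the block). KDELR1, with 248 ± 15.6 and 263 ± 20.1 CPM, and KDELR3, with 41.1 ± 5.96 and 44.1 ± 6.34 CPM (SD, n = 4), had log2 fold changes of 0.08 and 0.10. KDELR2 thus held 47 ± 4.1% of the family in controls and 49.7 ± 3.63% after hLcn-2, higher in each pair.

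SEC22 proteins are SNAREs or close relatives of the traffic between ER and Golgi. SEC22B stood at 75.2, 67.7, 59.8 and 57.3 CPM in controls and 68.2, 54.7, 58.8 and 57.2 CPM after hLcn-2. It was lower in each pair, by 0.14, 0.30, 0.024 and 0.0025 on the log2 scale, and the log2 fold change was −0.12 (SE 0.14). Of its 3′ windows 66.7% matched elsewhere in the genome, so that its reads can be shared with copies. SEC22C stood at 28.5, 32.9, 27.9 and 34.2 CPM in controls and 33.0, 37.0, 35.5 and 32.4 CPM after hLcn-2, higher in pairs 1 to 3 (log2 fold change 0.16, SE 0.15).

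The remaining genes lie outside the steps. SEC23IP, which binds SEC23 at ER exit sites, stood at 76.1, 73.4, 78.3 and 71.1 CPM in controls and 87.1, 87.8, 104 and 77.8 CPM after hLcn-2. It was higher in 4 of 4 pairs, and hLcn-2 sample 4 alone lay within the controls (log2 fold change 0.24, SE 0.13, exact permutation p = 0.0571, adjusted p = 0.282 in limma with the block). SEC24B-AS1 (chr4:109347475-109433817, minus strand) stood at 0.493, 0.675, 0.881 and 0.658 CPM in controls and 1.43, 1.13, 1.48 and 1.3 CPM after hLcn-2. The groups did not overlap (log2 fold change 0.48, SE 0.22), which fixes the exact permutation p at 0.0286, yet these values rest on 1 to 16 reads per sample. The gene it faces, SEC24B, had a log2 fold change of −0.10 (SE 0.15).

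Several of these genes carry, near their start site, the letters TGACGTGG, which the unfolded protein response factors ATF6 and XBP1 are known to bind. They were present on either strand in 11 of the 52 members with a RefSeq promoter (21.2%), in 0.927% of all genes with one and in 1.3% of the genes tested with one. The 11 genes were COPA, COPB1, COPB2, KDELR3, SEC16A, SEC23A, SEC24A, SEC62, SRP19, SSR3 and SSR4, so that COPI and COPII are both among them and SEC61A1, SEC61B and SEC61G are not. The matches are shown with 11 bases on each side (GRCh38.p14), in the direction of the gene, with the motif or its other strand in capitals.
COPA, chr1:160343227-160343256, minus strand: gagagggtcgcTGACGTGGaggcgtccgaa
COPB1, chr11:14499841-14499870, minus strand: cccacccccttCCACGTCAgccaaggactc
COPB2, chr3:139389632-139389661, minus strand: tcccggaagttCCACGTCAgtcagtctgac
COPB2, chr3:139389825-139389854, minus strand: gctcagcggcaCCACGTCAcggcccttagt
KDELR3, chr22:38468039-38468068, plus strand: ggccgccctggCCACGTCAccgcccggcca
SEC16A, chr9:136484707-136484736, minus strand: tggccctggtgCCACGTCAgccggactgaa
SEC23A, chr14:39103221-39103250, minus strand: tcccctcctctTGACGTGGcagaggcggcg
SEC24A, chr5:134648595-134648624, plus strand: gtgagagtcggTGACGTGGcggcgaggccg
SEC62, chr3:169966779-169966808, plus strand: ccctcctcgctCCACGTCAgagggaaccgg
SRP19, chr5:112861164-112861193, plus strand: aagtcttcatgCCACGTCAgagactagaga
SSR3, chr3:156554148-156554177, minus strand: tctgataacagCCACGTCAgcaaggaaact
SSR4, chrX:153794528-153794557, plus strand: tcagggaggggCCACGTCAgtgctgccaga

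A match describes these letters in this window and is not a binding site. The 11 genes with a match had a median log2 fold change of 0.096 and the members without one 0.13, and 2 of the 11 were higher in 4 of 4 pairs. The cAMP response element TGACGTCA was found in 0 of the 52 members, in 2.25% of all genes with a promoter and in 3.75% of the genes tested. For the ER stress response element ERSE these values were 0 of the 52, 0.0916% and 0.143%. ERSE is so rare in these windows that its absence from 52 members says little.

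Other genes of the pathway were looked at by fixed lists. Of the partners of the coats and of transport, 33 were in the table, with a median log2 fold change of 0.094, 27 above 0 and 6 below. In limma with or without the block 0 of them passed, and 2 rose in edgeR with the block. Over all genes tested, 50.2% lay above 0 and 1.49% passed in edgeR with the block (175 higher and 58 lower). These shares are the background for the lists that follow as well. ARFGAP3, a GTPase-activating protein that acts on ARF1 in COPI vesicles, went from 75.7 ± 11.2 to 103 ± 4.89 CPM (SD, n = 4) with adjusted p = 0.0266 in edgeR with the block, and its groups did not overlap. BET1, a SNARE of ER-to-Golgi vesicles, went from 38.3 ± 12 to 54.3 ± 12.5 CPM (SD, n = 4, adjusted p = 0.0193 in edgeR with the block). ARFGAP2, a relative of ARFGAP3, was lower in 4 of 4 pairs, at 9.84 ± 5.48 and 5.03 ± 2.06 CPM (SD, n = 4, adjusted p = 0.143 in edgeR with the block). ARCN1, the delta subunit of COPI, had a log2 fold change of 0.33 (SE 0.21) and was higher in 4 of 4 pairs.

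Of the 14 genes of the oligosaccharyltransferase, which adds sugars at the channel, and of other translocon partners, 10 had a log2 fold change above 0, with a median of 0.076, and 0 passed in limma or edgeR with or without the block. TRAM1, a membrane protein next to the channel, was at 263 ± 40.6 and 321 ± 36 CPM and STT3A, a catalytic subunit, at 136 ± 8.13 and 155 ± 3.1 CPM (SD, n = 4), the latter without overlap of the groups. The routes of insertion that do not use SEC61 in the same way, the tail-anchored and EMC genes, had 14 genes in the table with a median of −0.031, 6 above 0 and 8 below, and 0 passed in limma or edgeR with or without the block. The medians of the lists are descriptions and no difference between lists was tested.

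The list of regulators of secretory genes, which also held a chaperone, comprised 10 genes with a median log2 fold change of 0.18, 8 above 0 and 2 below. HSPA5, the chaperone BiP of the ER lumen, went from 1228 ± 185 to 1508 ± 286 CPM (SD, n = 4), higher in 4 of 4 pairs. In edgeR with the block HSPA5 was the 1 gene of the list that passed (adjusted p = 0.0344), and no transcription factor did. It did not pass in limma with the block (adjusted p = 0.117). XBP1, a transcription factor of the unfolded protein response, was at 65.8 ± 12.8 and 80.4 ± 11.3 CPM, and CREB3L2, which controls COPII genes in secretory cells, at 154 ± 23.9 and 176 ± 25.4 CPM (SD, n = 4). Both were higher in 4 of 4 pairs without passing, and ATF4, at 350 ± 33.9 and 405 ± 88.3 CPM (SD, n = 4), in 3 of 4.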

How the data were processed

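RNA of CAKI1 cells was isolated from 4 control and 4 hLcn-2-treated samples and sequenced as QuantSeq 3′ libraries with unique molecular identifiers, so that PCR copies of one molecule were counted once. Reads were mapped by the authors with STAR (GRCh38), collapsed by identifier and assigned to genes with HTSeq; whether counting used strand is not given in the sources used here. The deposited values are a signal, gene counts divided by an adjusted library size on the scale of CPM. All 134256 values (100%) were whole multiples of the worth of 1 read within 0.001 reads, which gave the reads per library (1501563 to 13953090) and thereby the precision of low values. The counting precision of a value follows from its reads, and 3 reads were taken as the floor. One cell with a decimal comma was read as a decimal point, and 2645 of 2810 genes without a symbol were named from their Ensembl identifier.

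The members and all gene lists were chosen with earlier results of these data known. Limma 3.58.1 (R 4.3.3) with an intensity trend was fitted, two-sided, to log2(normalized count + 1) of genes that reached 1 CPM in 2 or more samples, with Benjamini-Hochberg adjustment over 15593 genes. Fold changes on this scale understate the change of low genes. Limma, planned for normalized values, stayed the main test; edgeR 4.0.16 (quasi-likelihood) and DESeq2 1.42.0 were run on the recovered reads. The replicate number was used as a block because all 4 same-numbered correlations lay above 0.1. Exact permutation tests used the 70 regroupings of 4 against 4 samples, without regard to the sample numbers and without adjustment over genes. Named with values in every sample are, in each step, the gene of smallest limma p-value and that of highest level, each gene called by limma or edgeR with or without the block, and each gene whose groups do not overlap. Most examples from the other lists have the smallest limma p-values. RPN1, ERGIC2 and GOSR1 were passed over. SEC61A1, SEC61B and further genes of the lists, among them STT3A and ARCN1, were added after their values were seen. Windows of 60 nt from the last 500 nt of each transcript (every 10 nt) were aligned to the genome with minimap2 2.31-r1302. Gene positions are from GENCODE and GRCh38.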

Additional observations from a re-analysis of the deposited data

Results flagged for a closer look

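COPZ2, the rarer zeta subunit of COPI, stood at 8.39 CPM in hLcn-2 sample 3, apart from the other 3 hLcn-2 samples at 3.48 to 4.23 CPM. The gap to the nearest sample was 0.848 of the range of the group, more than Dixon's test at the 95% level allows for 4 samples. The value rests on 17 reads in a library in which 1 read is worth 0.494 CPM. In all, 42 groups of 4 were examined for the named genes, of which chance alone would mark about 2.1.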

How the results depend on the processing

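The number of the 59 genes that passed was 0 in limma without the block under other pseudocounts, filters, scalings, an adjusted p-value under 0.1 and with single samples left out, and likewise in edgeR and DESeq2 without the block. In limma with the block it was 0 at the threshold of 0.05, where SEC61G had an adjusted p of 0.056, and the threshold of 0.1 was not applied there. The number that passed was 1 (SEC61G) with the replicate block in edgeR and in DESeq2, and from 1 to 2 (SEC61G, and SRPRB without pair 4) in edgeR with the block without single pairs, a setting chosen after seeing the data. For all genes, the block gave 44 calls in limma (34 higher, 10 lower), 233 in edgeR (175 and 58) and 173 in DESeq2 (131 and 42), from 0 to 58 in limma without single pairs (14, 3, 0 and 58 without pairs 1 to 4) and 66, 56, 125 and 221 in edgeR without them. The members' median log2 fold change of 0.105 stayed between 0.103 and 0.154 without single samples, between 0.095 and 0.155 without single pairs, and between 0.09 and 0.114 otherwise. Without single samples or pairs, SRP14 ranged from −0.14 to 0.035, SEC62 from −0.12 to 0.047 and TMED9 from −0.025 to 0.14, so their direction is not settled. With the block and 1 pair left out, limma gave SEC62 0.0051 and 0.025 without pairs 1 and 2, and edgeR gave SEC62 0.028 without pair 2 and SRP14 0.0085 and 0.0081 without pairs 2 and 4; the cause was not tested. The other 18 of 21 named genes kept their sign in all settings that gave a value, and a filter on a mean of 10 CPM gave none for COPZ2 and SEC24B-AS1. The block changed no other call of a named member. Depth limits the genes of few reads, as 3 reads are 1.98 CPM in control 4.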
